A study of Mus musculus with 24 samples.

Results

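The transcript response of fresh-frozen mouse liver to furan was measured in 6 libraries, 3 of furan animals (41, 43 and 44) and 3 of control animals (02, 04 and 06), out of 22 libraries of the series that could be tied to a labelled sample. These are the fresh-frozen columns that carry a labelled animal number, and the response was read over all genes of the table. All animals were female B6C3F1 mice of 5 to 6 weeks, an F1 hybrid of the C57BL/6 and C3H strains. Furan mice were given furan in corn oil by gavage, at 8 mg/kg body weight on 21 days, and control mice were gavaged with the corn oil vehicle. Every liver was collected 4 h after the last dose. Each library is 1 animal, and the remaining libraries of the series come from formalin-fixed pieces of the same livers and of others.

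Furan is a volatile compound formed when food is heated, and a liver carcinogen in rodents. Hepatocytes oxidise it, mainly through the cytochrome P450 enzyme CYP2E1, to cis-butenedial, an aldehyde that binds protein thiols, glutathione and amines. Reactive aldehydes of this kind can release the transcription factor NRF2 from its inhibitor KEAP1 and let it drive genes of glutathione and thioredoxin metabolism. Damaged DNA stabilises the transcription factor p53, which drives genes of cell cycle arrest, feedback and cell death. Unfolded proteins release the heat shock factors, and kinases of the stress-activated JNK and p38 pathways act on AP-1 factors such as JUN and ATF3.

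Libraries held 33101755 to 58048387 counts in furan livers and 44980028 to 52810289 counts in control livers, with furan 41 the deepest and furan 44 the shallowest library. Levels are CPM, a count divided by its library's total and set to a common scale, adjusted for composition, and values of single libraries are given in the order of furan animals 41, 43 and 44 and control animals 02, 04 and 06. Albumin (Alb), the main secreted protein of hepatocytes, was at 125425, 115555 and 117302 CPM in furan livers and 117406, 112027 and 113955 CPM in control livers. Summed levels of the 11 hepatocyte markers were 159321 to 169711 CPM in furan livers and 161784 to 171990.0 CPM in control livers. The first principal component held 49.3% of the variance and separated furan from control livers, and the second held 16.3% and lay mainly between control 04 and control 06. Summed markers of pancreas lay at 0.142 to 0.207 CPM in furan livers and 0.236 to 0.327 CPM in control livers, with Prss2, Cpa1, Cpb1, Amy2a5 and Try4 at 0 in all 6 libraries. The haemoglobin genes Hba-a1, Hba-a2, Hbb-b1 and Hbb-b2 were also at 0 in all 6, so blood content cannot be read from them. In bulk tissue, fewer cells of a type and less RNA per cell cannot be told apart.

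Of 13794 genes with enough counts to test, 1132 rose and 1030 fell in furan livers at an adjusted p under 0.05 (edgeR's quasi-likelihood test with Benjamini-Hochberg adjustment, which also gives every adjusted p below). That is 8.21% of tested genes rising, 7.47% falling and 15.7% called in either direction, the background for each gene group below. Values in brackets after a gene give its log2 fold change, furan over control, ± SE, and a gene rose or fell only where it passed. Most changes were small: the median log2 fold change was 0.50 among genes that rose and -0.46 among genes that fell, and 259 of the rises and 73 of the falls reached 2-fold. Over all tested genes the median was -0.01. Groups overlapped in 3 of the 2162 called genes (Top2a, Igfbp1 and Ppp1r3g), and for every other called gene all 3 furan livers lay on 1 side of all 3 control livers. The calls were made on these same values, so this separation is no further support for them. The share over all tested genes is not given here. Falls were more frequent among abundant genes, 13.7% in the top 20% by abundance and 1.57% in the bottom 20%. Rises were more frequent among long transcripts, 10.8% in the longest 20% and 5.00% in the shortest 20%, and the part of transcript length in any result was not tested. The number of called genes was 864 without furan 43, 1140 without furan 44, 1287 without control 04, 1311 without control 02, 1356 without furan 41 and 1620 without control 06. A joint model of all 6 groups of the series, FFPE libraries included, called 138, and its count of members is given in brackets after a group's count where that was 4 or more and over 1.5 times larger.

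**Figure D1:**
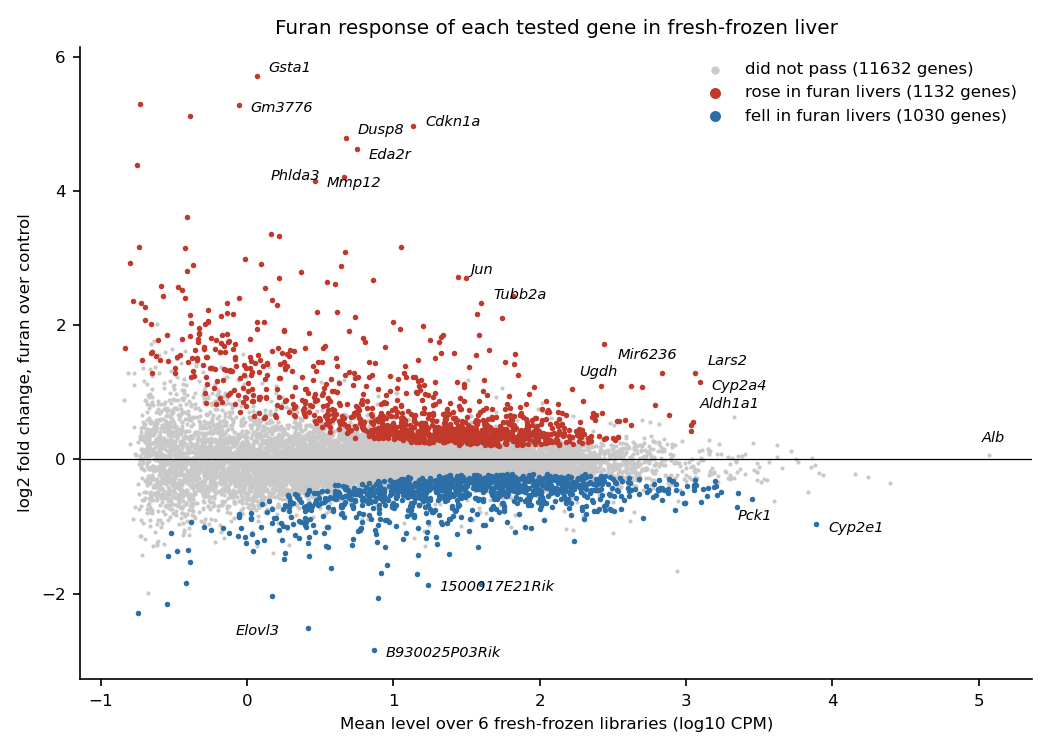
Each point is 1 of 13794 tested genes, with its mean level over the 6 fresh-frozen libraries (log10 CPM) across and its log2 fold change, furan over control, upward; red genes rose (1132), blue genes fell (1030) and grey genes did not pass. The largest folds belong to rises of genes that are low in control livers, such as Cdkn1a and Dusp8, while falls reach further right, to Cyp2e1 in the abundant range.

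Genes that p53 drives for arrest, feedback and repair included the response with the smallest p-value of the data. In this list, 16 of 28 tested rose (8 in the joint model) and 12 did not pass (median log2 fold change 0.96). Cdkn1a, the gene of the cyclin-dependent kinase inhibitor p21, had 26.8, 27.6 and 25.3 CPM in furan livers, against 0.818, 0.922 and 0.788 CPM in control livers (4.97 ± 0.10, adjusted p = 2.9e-07). The 3 furan livers lay close together (SD 1.16 CPM, n = 3) and the control livers were all under 1 CPM. Phlda3, which holds back AKT signalling, had 6.60, 9.95 and 9.52 CPM in furan livers, against 0.374, 0.653 and 0.355 CPM in control livers (4.21 ± 0.26, adjusted p = 0.000254). Zmat3, an RNA-binding protein, had 28.9, 34.5 and 31.4 CPM in furan livers, against 9.16, 8.95 and 10.2 CPM in control livers (1.74 ± 0.09, adjusted p = 0.000198). In both, the lowest furan liver was furan 41 and lay well above every control liver. Mdm2, the ubiquitin ligase that closes the feedback loop on p53, had 54.2, 53.6 and 55.9 CPM in furan livers, against 28.5, 26.4 and 25.98 CPM in control livers (1.02 ± 0.07, adjusted p = 0.000302), with furan livers tightly grouped. The arrest genes Btg2 (1.38 ± 0.08), Ccng1 (1.26 ± 0.11) and Plk2 (1.15 ± 0.14) rose, as did Sesn2 (1.52 ± 0.11), a stress protein that restrains mTOR, and Ddit4 (0.91 ± 0.13), which acts on the same pathway. Trp53inp1 (1.08 ± 0.12), a p53 cofactor, and the bypass polymerase Polk (1.01 ± 0.15) rose too. Gdf15, a secreted stress hormone that lowers food intake, had 13.4, 6.96 and 17.6 CPM in furan livers, against 2.71, 1.61 and 1.65 CPM in control livers (2.67 ± 0.35, adjusted p = 0.00405); its furan values differed by more than 2-fold between animals 43 and 44. Gtse1 (2.64 ± 0.19), Psrc1 (2.57 ± 0.39) and Ckap2 (2.70 ± 0.44) act on microtubules in dividing cells and are also p53 targets.

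Other members of the same list did not pass. Sesn1 had 20.05, 20.4 and 17.1 CPM in furan livers, against 21.4, 21.04 and 20.3 CPM in control livers (-0.13 ± 0.08, adjusted p = 0.356), and the damage recognition genes Xpc (-0.01 ± 0.08, adjusted p = 0.921) and Ddb2 (-0.41 ± 0.15, adjusted p = 0.108) and the ribonucleotide reductase subunit Rrm2b (-0.05 ± 0.12, adjusted p = 0.791) showed no called change. Mdm4, the partner of MDM2, had 27.9, 26.98 and 32.3 CPM in furan livers, against 33.3, 36.7 and 38.4 CPM in control livers (-0.32 ± 0.09, adjusted p = 0.051), a difference that missed the threshold. Trp53 itself had 20.3, 17.7 and 20.5 CPM in furan livers, against 15.8, 15.8 and 14.5 CPM in control livers and rose by 0.34 ± 0.08. Trp53 missed the threshold without furan 41, furan 44, control 02, control 04 or control 06 (adjusted p = 0.0628 to 0.0839). Aen, a nuclease that p53 drives in dying cells, had 32.1, 30.2 and 32.5 CPM in furan livers, against 11.3, 9.89 and 10.4 CPM in control livers (1.59 ± 0.08, adjusted p = 0.000198). 4632434I11Rik, now named Ddias and known as an inhibitor of damage-induced cell death, had 6.17, 8.95 and 8.05 CPM in furan livers, against 0.935, 1.13 and 1.04 CPM in control livers (2.89 ± 0.18, adjusted p = 0.000254).

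**Figure D2:**
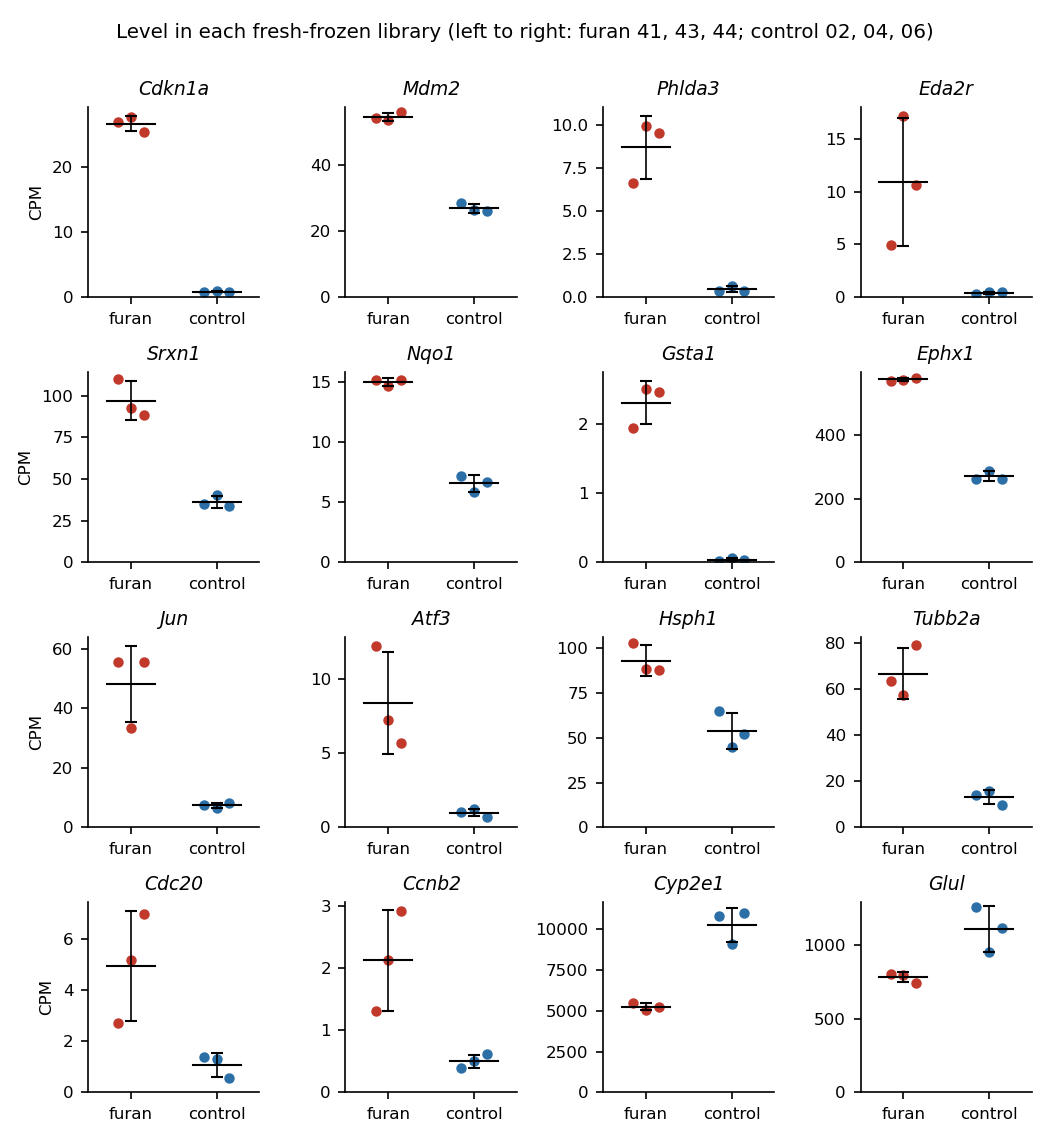
Points are the 6 fresh-frozen libraries for 16 genes in CPM, furan on the left and control on the right of each panel, with the group mean (line) and SD (bar, n = 3) and each axis starting at 0. In the top row Cdkn1a and Phlda3 are nearly at 0 in control livers, while Cyp2e1 in the bottom row is at 5497, 5031 and 5262 CPM in furan livers.

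Of the p53 targets in cell death, 6 of 17 tested rose (3 in the joint model), 1 fell and 10 did not pass. The receptor gene Eda2r rose most, with 4.96, 17.1 and 10.6 CPM in furan livers, against 0.304, 0.519 and 0.473 CPM in control livers (4.62 ± 0.50, adjusted p = 0.00206). Tnfrsf10b, the mouse TRAIL receptor, had 2.50, 3.43 and 3.13 CPM in furan livers, against 0.327, 0.231 and 0.335 CPM in control livers (3.33 ± 0.23, adjusted p = 0.000376). In both genes furan 41 was the lowest furan liver, and it still lay above all control livers. Tnfrsf12a, the TWEAK receptor, rose by 1.81 ± 0.14, and Bax, which opens the mitochondrial outer membrane, had 17.4, 16.4 and 17.2 CPM in furan livers, against 7.13, 8.01 and 6.64 CPM in control livers (1.23 ± 0.09, adjusted p = 0.000451). Perp, a p53 target of cell contacts, fell (-0.39 ± 0.08). The BH3-only genes Bbc3 (0.21 ± 0.25, adjusted p = 0.596) and Pmaip1 (0.05 ± 0.43, adjusted p = 0.95) and the receptor Fas (0.16 ± 0.12, adjusted p = 0.409) did not pass. Among regulators of apoptosis outside the p53 list, 4 of 29 tested rose (0 in the joint model), 2 fell and 23 did not pass. Hrk, a BH3-only gene, had 0.724, 0.782 and 0.724 CPM in furan livers, against 0.210, 0.134 and 0.256 CPM in control livers (1.88 ± 0.29, adjusted p = 0.00681), and Bmf, another one, had 8.71, 18.6 and 12.01 CPM in furan livers, against 31.5, 36.3 and 36.2 CPM in control livers (-1.41 ± 0.24, adjusted p = 0.00943). Casp6, an executioner caspase, had 21.96, 18.997 and 17.7 CPM in furan livers, against 32.3, 31.6 and 36.5 CPM in control livers (-0.77 ± 0.10, adjusted p = 0.00372). Perp missed the threshold without furan 43 or furan 44 (adjusted p = 0.0678 to 0.068). Rises among them numbered 2 without furan 41, control 02 or control 04 and 1 without furan 43.

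Enzymes of DNA repair showed shares close to those over all tested genes: 8 of 71 tested rose (0 in the joint model), 3 fell and 60 did not pass (median log2 fold change 0.00). Chek1, the kinase of the replication checkpoint, had 0.827, 1.18 and 1.16 CPM in furan livers, against 0.234, 0.211 and 0.414 CPM in control livers (1.85 ± 0.31, adjusted p = 0.00959). Fanca, a scaffold of crosslink repair, had 1.12, 1.42 and 1.30 CPM in furan livers, against 0.607, 0.615 and 0.611 CPM in control livers (1.06 ± 0.19, adjusted p = 0.0121), and Ercc3, a helicase of nucleotide excision repair, rose by 0.38 ± 0.07. Rad51b, which acts in homologous recombination, had 1.93, 1.71 and 1.85 CPM in furan livers, against 6.52, 6.26 and 4.16 CPM in control livers (-1.62 ± 0.19, adjusted p = 0.00281); its highest library was control 02. Rises numbered 3 without furan 43 or furan 44, 4 without control 02 and 5 without control 04. Falls numbered 1 without furan 43 or furan 44.

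Promoters come before the values for genes of glutathione, thioredoxin and NRF2. NRF2 is a known regulator of some of these genes, and its part in their changes was not tested. NRF2 with a small MAF partner binds the antioxidant response element, whose core was searched as TGACNNNGC on both strands of RefSeq promoters (250 bases before to 50 after the start, build GRCm38.p6); an AP-1 element can overlap this core. A gene counts as holding it where any of its promoters does. Of 99 tested members of the NRF2 target, glutathione transferase, glutathione and thioredoxin lists, 84 had a promoter in the table and 17 of these (20.2%) held it, against 17% of 10784 tested genes and 14% of all 27025 genes of the table. The 3 called genes with the smallest p-values among those with a match are shown, the match on either strand in capitals, which describes letters and not a bound site: Ugdh (chr5:65435793-65436092, minus strand), Srxn1 (chr2:152105274-152105573, plus strand) and Txnrd1 (chr10:82858956-82859255, plus strand).
Ugdh: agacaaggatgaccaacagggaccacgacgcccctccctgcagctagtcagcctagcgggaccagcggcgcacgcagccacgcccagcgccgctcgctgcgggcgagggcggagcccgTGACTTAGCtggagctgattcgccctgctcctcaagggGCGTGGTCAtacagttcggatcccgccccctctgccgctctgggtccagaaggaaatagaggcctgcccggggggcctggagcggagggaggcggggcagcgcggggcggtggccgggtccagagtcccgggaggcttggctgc
Srxn1: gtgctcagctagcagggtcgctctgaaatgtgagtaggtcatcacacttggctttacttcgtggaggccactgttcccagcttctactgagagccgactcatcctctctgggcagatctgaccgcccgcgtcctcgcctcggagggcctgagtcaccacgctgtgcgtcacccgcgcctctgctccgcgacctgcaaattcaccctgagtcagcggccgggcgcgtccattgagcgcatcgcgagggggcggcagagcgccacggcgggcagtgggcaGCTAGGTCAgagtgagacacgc
Txnrd1: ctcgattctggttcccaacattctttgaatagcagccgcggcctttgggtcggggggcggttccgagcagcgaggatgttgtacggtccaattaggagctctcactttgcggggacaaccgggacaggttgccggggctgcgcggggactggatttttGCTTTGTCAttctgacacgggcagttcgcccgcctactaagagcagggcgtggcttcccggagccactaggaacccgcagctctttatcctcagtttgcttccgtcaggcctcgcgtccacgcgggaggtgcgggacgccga

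Target enzymes of NRF2 rose in part: 14 of 30 tested rose (7 in the joint model) and 16 did not pass (median log2 fold change 0.29). Ugdh, which makes the glucuronic acid donor, had 226, 230.2 and 214 CPM in furan livers, against 107, 108 and 109 CPM in control livers (1.05 ± 0.06, adjusted p = 0.000254). Nqo1, a quinone reductase, had 15.2, 14.6 and 15.2 CPM in furan livers, against 7.20, 5.82 and 6.66 CPM in control livers (1.20 ± 0.10, adjusted p = 0.000616). Ephx1, the microsomal epoxide hydrolase, had 571, 575 and 582 CPM in furan livers, against 261, 289 and 263 CPM in control livers (1.09 ± 0.07, adjusted p = 0.000376). In these 3 genes furan livers differed little from each other and lay above every control liver. The carbonyl reductases Cbr3, with 1.28, 1.99 and 1.19 CPM in furan livers, against 0.187, 0.384 and 0.256 CPM in control livers (2.40 ± 0.33, adjusted p = 0.0046), and Cbr1 (0.66 ± 0.08) rose, as did the aldehyde oxidase Aox1 (0.74 ± 0.09) and the glucuronosyltransferases Ugt2b35 (1.09 ± 0.08) and Ugt1a6a (0.66 ± 0.08), which belong to families of similar copies. The efflux pump Abcc4 had 4.71, 6.58 and 6.40 CPM in furan livers, against 1.99, 3.05 and 2.93 CPM in control livers (1.14 ± 0.20, adjusted p = 0.0104), and Htatip2, an oxidoreductase, rose by 0.62 ± 0.09. Hmox1, haem oxygenase, had 100.2, 53.2 and 29.1 CPM in furan livers, against 15.2, 15.3 and 10.3 CPM in control livers (2.17 ± 0.40, adjusted p = 0.0127); furan 41 was the highest and furan 44 the lowest furan liver. Hmox1 missed the threshold with robust dispersions (adjusted p = 0.0579). The ferritin chain Fth1 (-0.01 ± 0.08, adjusted p = 0.952) and the autophagy receptor Sqstm1 (0.35 ± 0.12, adjusted p = 0.0957) did not pass.

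Of the regulators of NRF2, 2 of 11 tested rose, 1 fell and 8 did not pass. Nfe2l2, which encodes NRF2, had 127, 108 and 104 CPM in furan livers, against 74.3, 73.3 and 74.1 CPM in control livers (0.61 ± 0.08, adjusted p = 0.00449), and its partner Mafk rose by 0.61 ± 0.12. Mafk missed the threshold without furan 43 (adjusted p = 0.0597). Keap1 had 86.2, 74.5 and 78.8 CPM in furan livers, against 73.7, 77.9 and 75.4 CPM in control livers (0.08 ± 0.07, adjusted p = 0.504). Rises came to 1 without furan 43 and 4 without furan 44. Falls came to 0 without furan 41, furan 43, furan 44, control 02, control 04 or control 06.

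Glutathione transferases join glutathione to electrophiles, and 7 of 24 tested rose (3 in the joint model), 3 fell and 14 did not pass. Gsta1 had 1.95, 2.51 and 2.46 CPM in furan livers, against 0.0234, 0.0576 and 0.0394 CPM in control livers (5.71 ± 0.31, adjusted p = 0.000198), and Gm3776, a copy that shares 95.6% of its 31-base words with other genes, had 1.41, 1.73 and 1.997 CPM in furan livers, against 0.0234, 0.0192 and 0.0788 CPM in control livers (5.28 ± 0.40, adjusted p = 0.000451). Control counts of both were so low that these SEs are approximate, and reads of the copies cannot be told apart. Gsta2 rose to 13.7, 12.6 and 13.8 CPM in furan livers, against 2.43, 4.71 and 5.30 CPM in control livers (1.68 ± 0.24). Gstm1, the abundant mu-class enzyme, had 944, 927 and 943 CPM in furan livers, against 587, 545 and 644 CPM in control livers (0.66 ± 0.09, adjusted p = 0.00372). Gstp2 (2.80 ± 0.41) rose too, with sequence close to that of Gstp1. The 3 falls, of Gstt2, Gstm6 and Gstk1, each missed the threshold in 5 of the 6 fits without 1 library, and falls numbered 1 without furan 41 or furan 44 and 0 without furan 43, control 02 or control 06.

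Among enzymes of glutathione synthesis and use, 4 of 26 tested rose (1 in the joint model), 3 fell and 19 did not pass. Over all tested genes 8.21% rose and 7.47% fell. Gclc, the catalytic subunit of the rate-limiting ligase, had 838, 833 and 685 CPM in furan livers, against 493, 484 and 363 CPM in control livers (0.81 ± 0.14, adjusted p = 0.00959), whereas its modifier subunit Gclm had 196, 209.5 and 177 CPM in furan livers, against 196, 174 and 174 CPM in control livers (0.10 ± 0.09, adjusted p = 0.479). The groups were apart for Gclc and overlapped for Gclm. Ggct, which opens gamma-glutamyl amino acids, rose by 0.83 ± 0.12, and the reductase Gsr by 0.37 ± 0.06. Chac1, which degrades glutathione, had 0.896, 1.28 and 0.666 CPM in furan livers, against 2.15, 2.56 and 3.29 CPM in control livers (-1.48 ± 0.26, adjusted p = 0.0104). Falls numbered 1 without furan 41, furan 44 or control 02. In the thioredoxin system, 3 of 19 tested rose and 16 did not pass. Srxn1, which restores overoxidised peroxiredoxins, had 110.2, 92.7 and 88.2 CPM in furan livers, against 34.9, 40.4 and 33.6 CPM in control livers (1.42 ± 0.11, adjusted p = 0.000451), and the reductase Txnrd1 had 315, 277 and 271 CPM in furan livers, against 177, 170.0 and 185 CPM in control livers (0.70 ± 0.08, adjusted p = 0.00279). Of the enzymes that make NADPH, 2 of 16 tested rose, 1 fell and 13 did not pass. G6pdx (0.84 ± 0.16) and Pgd (0.66 ± 0.08), of the pentose phosphate pathway, rose. G6pdx missed the threshold without furan 43 (adjusted p = 0.0558). Falls came to 0 without furan 41, furan 43, furan 44, control 02, control 04 or control 06.

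Furan's metabolite is a dialdehyde, and among enzymes that oxidise or reduce aldehydes 6 of 34 tested rose (3 in the joint model), 1 fell and 27 did not pass. Falls numbered 0 without furan 41, furan 43, control 04 or control 06, and 3 by DESeq2. Aldh1a1 had 1336, 1244 and 1399 CPM in furan livers, against 885, 809 and 996 CPM in control livers (0.56 ± 0.10, adjusted p = 0.0115) and was among the largest rises in CPM. Aldh1b1 (0.70 ± 0.09), a mitochondrial enzyme, and Aldh1a7 (0.63 ± 0.10) rose, and Akr1c18, a hydroxysteroid dehydrogenase, had 0.431, 0.971 and 0.868 CPM in furan livers, against 0.164, 0.0576 and 0.0788 CPM in control livers (2.90 ± 0.49, adjusted p = 0.00941). Aldh2, the main mitochondrial acetaldehyde dehydrogenase, had 2420.4, 1969 and 2114 CPM in furan livers, against 2245, 2149 and 2316 CPM in control livers (-0.05 ± 0.10, adjusted p = 0.794). Other conjugating enzymes fell more often than they rose: 3 of 30 tested rose, 8 fell (1 in the joint model) and 19 did not pass (median log2 fold change -0.16). Ugt2a3 (-0.77 ± 0.08), Ugt3a1 (-0.59 ± 0.09), the acetyltransferase Nat2 (-0.55 ± 0.09) and the sulfotransferases Sult1c2 (-1.06 ± 0.12) and Sult3a1 (-1.30 ± 0.22) fell. Ugt1a10, which shares its 3' exons with the other Ugt1a genes, rose by 1.56 ± 0.20. Falls came to 5 without furan 43, furan 44, control 02 or control 06. Rises numbered 5 without furan 41 and 1 without furan 43 or control 04. Of the xenobiotic transporters, 2 of 19 tested rose, 3 fell and 14 did not pass. Slc10a2, a bile acid uptake carrier, had 7.43, 14.5 and 11.03 CPM in furan livers, against 4.86, 3.30 and 4.02 CPM in control livers (1.44 ± 0.25, adjusted p = 0.00997), while Abcc6 (-0.77 ± 0.08) and Slco2b1 (-0.74 ± 0.09) fell. Rises came to 1 without furan 43, furan 44, control 04 or control 06.

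Of the AP-1 and immediate early genes, 8 of 31 tested rose (2 in the joint model) and 23 did not pass (median log2 fold change 0.39). The AP-1 element, searched as TGAGTCA or TGACTCA, was in 1 of the 25 tested members with a promoter (4%), against 4.84% of tested genes. The cyclic AMP response element, searched as TGACGTCA, was also in 1 of the 25 (4%), against 3.41% of tested genes. Jun had 55.7, 33.4 and 55.7 CPM in furan livers, against 7.50, 6.59 and 8.06 CPM in control livers (2.71 ± 0.20, adjusted p = 0.000451), and Atf3, a repressor made in many stresses, had 12.3, 7.22 and 5.73 CPM in furan livers, against 1.05, 1.21 and 0.729 CPM in control livers (3.08 ± 0.32, adjusted p = 0.00188). Control livers were low and close together in both. Fosl2 (1.17 ± 0.16) and Trib1, a pseudokinase (0.55 ± 0.09), rose, and Myc had 18.5, 44.5 and 14.2 CPM in furan livers, against 4.16, 10.9 and 4.23 CPM in control livers (1.99 ± 0.51, adjusted p = 0.0341). Myc missed the threshold without furan 41, furan 43, control 02 or control 06 or with robust dispersions (adjusted p = 0.0575 to 0.119). Egr1 had 67.3, 37.5 and 29.8 CPM in furan livers, against 36.7, 11.6 and 11.2 CPM in control livers (1.19 ± 0.48, adjusted p = 0.134), with furan 43 and furan 44 near control 02. Rises numbered 4 without furan 41 or furan 43 and 5 without control 06. Dual-specificity phosphatases switch such kinases off, and 4 of 17 tested rose (2 in the joint model), 1 fell and 12 did not pass. Dusp8, specific for JNK and p38, had 12.6, 9.19 and 5.67 CPM in furan livers, against 0.304, 0.307 and 0.374 CPM in control livers (4.79 ± 0.34, adjusted p = 0.000451), highest in furan 41 and lowest in furan 44. Dusp6, specific for ERK, had 113, 92.6 and 100.4 CPM in furan livers, against 45.3, 30.03 and 27.9 CPM in control livers (1.57 ± 0.18, adjusted p = 0.0024), and Dusp16, another JNK phosphatase, rose by 0.63 ± 0.10. Dusp1, the immediate early member, had 14.2, 13.1 and 21.1 CPM in furan livers, against 13.6, 11.01 and 16.1 CPM in control livers (0.25 ± 0.20, adjusted p = 0.435).

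Of the heat shock genes, 11 of 31 tested rose (0 in the joint model) and 20 did not pass (median log2 fold change 0.30). Hsph1, a nucleotide exchange factor of HSP70, had 103, 88.2 and 87.8 CPM in furan livers, against 64.9, 44.9 and 52.3 CPM in control livers (0.79 ± 0.13, adjusted p = 0.00971). Hspa4l, a relative of it, had 21.9, 30.3 and 27.1 CPM in furan livers, against 14.8, 15.2 and 13.2 CPM in control livers (0.88 ± 0.12, adjusted p = 0.00524). Hspa8, the constitutive HSP70, had 325, 263 and 300.1 CPM in furan livers, against 197, 179 and 184 CPM in control livers (0.67 ± 0.09, adjusted p = 0.00482), and Hsp90aa1 (0.82 ± 0.13) and Hsp90ab1 (0.42 ± 0.08), the cytosolic HSP90 proteins, rose. Hspa8 and Hsp90aa1 have near-identical pseudogenes, so their levels are uncertain. The stress-induced Hspa1b had 11.2, 4.07 and 3.97 CPM in furan livers, against 3.34, 2.09 and 3.13 CPM in control livers (1.19 ± 0.41, adjusted p = 0.0859), with furan 41 alone far above the rest, and Hsf1, the main heat shock factor, had 27.8, 21.9 and 24.9 CPM in furan livers, against 20.8, 17.4 and 20.7 CPM in control livers (0.34 ± 0.11, adjusted p = 0.0734). Bag3 (0.63 ± 0.13) and the small chaperone Hspb1 (1.42 ± 0.37) rose. Bag3 missed the threshold without control 02 or control 04 (adjusted p = 0.0502 to 0.0504), and Hspb1 without furan 43, furan 44 or control 02 (adjusted p = 0.064 to 0.126). Rises came to 6 without furan 43 or control 04 and 7 without furan 44. The heat shock element, searched as GAANNTTC on both strands, was in 14 of the 25 tested members with a promoter (56%), against 7.15% of tested genes and 9.04% of all genes of the table. The promoter of Hsph1 (chr5:149636287-149636586, minus strand) is shown with its match in capitals.
Hsph1: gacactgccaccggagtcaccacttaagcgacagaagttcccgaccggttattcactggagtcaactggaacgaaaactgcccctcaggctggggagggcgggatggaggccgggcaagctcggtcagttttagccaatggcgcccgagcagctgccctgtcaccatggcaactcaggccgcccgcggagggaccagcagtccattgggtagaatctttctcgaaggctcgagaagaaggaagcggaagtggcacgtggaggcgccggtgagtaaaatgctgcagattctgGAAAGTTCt

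In the unfolded protein and integrated stress response of the endoplasmic reticulum, 3 of 37 tested rose, 1 fell and 33 did not pass. Mthfd2, a mitochondrial folate enzyme, had 1.53, 1.78 and 1.82 CPM in furan livers, against 0.748, 0.692 and 0.630 CPM in control livers (1.30 ± 0.18, adjusted p = 0.00481), and Atf4, the factor that drives it, rose by 0.52 ± 0.09. Falls numbered 0 without furan 43, furan 44, control 02 or control 04. Hspa5, the chaperone BiP, had 664, 711 and 735 CPM in furan livers, against 791, 625 and 518 CPM in control livers (0.13 ± 0.14, adjusted p = 0.59), and Ddit3, which encodes CHOP, had 7.10, 4.50 and 4.95 CPM in furan livers, against 4.93, 4.19 and 3.96 CPM in control livers (0.35 ± 0.19, adjusted p = 0.238). Groups overlapped in both. Among proteasome subunits and activators Psmd5 (0.38 ± 0.07) and Psme3 (0.33 ± 0.06) rose, of 38 tested. The metallothioneins Mt1 (-0.40 ± 0.27, adjusted p = 0.363) and Mt2 (-0.33 ± 0.26, adjusted p = 0.427) did not pass, and Tfrc, the transferrin receptor, had 30.2, 32.6 and 49.2 CPM in furan livers, against 17.2, 14.7 and 18.4 CPM in control livers (1.15 ± 0.18, adjusted p = 0.00794).

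Of the genes that build ribosomes, set beside 8.21% of all genes rising, 21 of 57 tested rose (0 in the joint model), 1 fell and 35 did not pass (median log2 fold change 0.27). Rrp12, which exports ribosomal precursors, had 22.03, 17.9 and 20.98 CPM in furan livers, against 10.8, 8.05 and 9.65 CPM in control livers (1.10 ± 0.13, adjusted p = 0.00252). Nop58, of the methylation complex that modifies ribosomal RNA, had 23.7, 23.1 and 24.2 CPM in furan livers, against 14.8, 11.5 and 14.1 CPM in control livers (0.81 ± 0.10, adjusted p = 0.00336), and Polr1e, a subunit of RNA polymerase I, had 4.86, 4.31 and 5.24 CPM in furan livers, against 2.80, 2.46 and 2.64 CPM in control livers (0.87 ± 0.13, adjusted p = 0.00624). Mybbp1a (0.50 ± 0.06), Utp20 (0.59 ± 0.08), Bop1 (0.56 ± 0.08), Ppan (0.62 ± 0.11) and the polymerase subunit Polr1a (0.48 ± 0.09) rose with smaller folds. Npm1, nucleophosmin, was the 1 member that fell (-0.33 ± 0.06). Npm1 missed the threshold without furan 44 (adjusted p = 0.0502). Rises numbered 13 without furan 44. Of the aminoacyl-tRNA synthetases and their partners, 8 of 22 tested rose (0 in the joint model) and 14 did not pass (median log2 fold change 0.25). The glycyl and valyl synthetases Gars (0.39 ± 0.06) and Vars (0.33 ± 0.06) rose. Rises came to 5 without furan 41, 3 without furan 43 or furan 44, 2 without control 04 and 4 without control 06. Of RNA polymerase II subunits and cofactors, 7 of 29 tested rose (1 in the joint model) and 22 did not pass. Polr2a, the largest subunit, had 160.3, 128 and 142 CPM in furan livers, against 77.5, 76.8 and 80.4 CPM in control livers (0.88 ± 0.09, adjusted p = 0.00161), and the acetyltransferases Crebbp (0.74 ± 0.08) and Ep300 (0.47 ± 0.07) rose.

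Of the tubulins, the subunits of microtubules, 7 of 13 tested rose (3 in the joint model) and 6 did not pass (median log2 fold change 0.62). Tubb2a had 63.5, 57.5 and 78.8 CPM in furan livers, against 13.9, 15.8 and 9.83 CPM in control livers (2.33 ± 0.18, adjusted p = 0.000559). Tubb4b had 77.1, 77.9 and 99.5 CPM in furan livers, against 35.2, 30.4 and 27.9 CPM in control livers (1.44 ± 0.13, adjusted p = 0.000814). Tuba1c (0.99 ± 0.11), Tuba1a (0.69 ± 0.11), Tuba1b (0.68 ± 0.11), Tuba4a (0.67 ± 0.13) and Tubb6 (0.53 ± 0.10) also rose. These genes share much of their coding sequence with each other, so the division of reads between them is uncertain. Among genes of the actin cytoskeleton and targets of SRF and YAP, 4 of 32 tested rose (0 in the joint model), 1 fell and 27 did not pass. Their median log2 fold change was 0.19, with 24 above 0 and 8 below. Rises numbered 2 without furan 43 or control 06. Falls came to 0 without furan 41 or furan 44 and 2 without furan 43. The YAP target Ctgf lay at the low end of that list. It had 2.65, 5.02 and 3.33 CPM in furan livers, against 3.62, 4.25 and 8.47 CPM in control livers (-0.58 ± 0.35, adjusted p = 0.297).

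Of the mitosis genes, 29 of 56 tested rose (0 in the joint model) and 27 did not pass (median log2 fold change 1.20). Their levels were low in every library, with a sum over the 58 listed genes of 104, 152 and 182 CPM in furan livers, against 82.5, 84.3 and 73.8 CPM in control livers. Furan 41 was the lowest furan liver for 53 of the 56 tested members and furan 44 the highest for 44, and control 06 was the lowest control liver for 35. Ccnb2, a cyclin of entry into mitosis, had 1.31, 2.13 and 2.92 CPM in furan livers, against 0.397, 0.4995 and 0.611 CPM in control livers (2.04 ± 0.33, adjusted p = 0.00828). Cdc20, which activates the anaphase-promoting complex, had 2.71, 5.16 and 6.98 CPM in furan livers, against 1.38, 1.29 and 0.551 CPM in control livers (2.20 ± 0.41, adjusted p = 0.0132). Aspm (1.92 ± 0.25) and Prc1 (1.38 ± 0.25), of the spindle, and Foxm1, the factor that drives mitosis genes (1.45 ± 0.25), rose. Mki67, the proliferation marker Ki-67, had 6.05, 10.7 and 13.3 CPM in furan livers, against 3.48, 4.65 and 2.72 CPM in control livers (1.46 ± 0.30, adjusted p = 0.0176), and Cdk1, the mitotic kinase, had 1.28, 2.01 and 2.32 CPM in furan livers, against 0.654, 0.865 and 0.867 CPM in control livers (1.21 ± 0.26, adjusted p = 0.0206). Top2a, a topoisomerase, had 3.17, 6.09 and 6.69 CPM in furan livers, against 2.38, 3.27 and 2.11 CPM in control livers and rose by 1.02 ± 0.29 with furan 41 below control 04. Cdc20 missed the threshold without furan 43 (adjusted p = 0.0519), Mki67 without furan 43, furan 44 or control 02 (adjusted p = 0.0503 to 0.0649), Cdk1 without furan 43, furan 44 or control 02 (adjusted p = 0.0597 to 0.0745), and Top2a without furan 43, furan 44, control 02, control 04 or control 06, with robust dispersions or after thinning (adjusted p = 0.0548 to 0.149). Rises numbered 5 without furan 43 and 7 without furan 44, and of the control livers, 11 without control 02, 17 without control 04 and 15 without control 06.

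The cell cycle homology region, searched as TTTGAA or TTCGAA on both strands, was in promoters of 36 of the 47 tested mitosis genes that had one (76.6%), against 16.7% of tested genes and 21.7% of all genes of the table. The letters CCAAT, on both strands, were in 34 of them (72.3%), against 42.5% of tested genes and 41.1% of all. These elements are known from mitosis genes that the DREAM and MMB-FOXM1 complexes regulate. Ccnb2 (chr9:70421505-70421804, minus strand) and Cdk1 (chr10:69352863-69353162, minus strand) were chosen after their values were seen, to show both elements in capitals.
Ccnb2: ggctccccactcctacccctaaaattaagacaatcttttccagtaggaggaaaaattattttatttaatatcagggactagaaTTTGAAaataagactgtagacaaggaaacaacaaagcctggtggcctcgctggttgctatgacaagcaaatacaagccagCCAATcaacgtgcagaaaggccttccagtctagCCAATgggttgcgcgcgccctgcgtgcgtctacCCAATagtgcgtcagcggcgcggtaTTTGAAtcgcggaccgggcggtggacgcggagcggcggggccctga
Cdk1: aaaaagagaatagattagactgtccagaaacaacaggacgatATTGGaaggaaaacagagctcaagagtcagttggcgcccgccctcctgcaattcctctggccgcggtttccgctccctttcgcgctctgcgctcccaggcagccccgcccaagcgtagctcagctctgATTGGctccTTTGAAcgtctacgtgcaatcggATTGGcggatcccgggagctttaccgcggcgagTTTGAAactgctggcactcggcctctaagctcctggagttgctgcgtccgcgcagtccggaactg

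Of the genes of the G1 to S transition and of replication, 11 of 46 tested rose (0 in the joint model), 3 fell and 32 did not pass (median log2 fold change 0.23). Mcm2, a subunit of the replicative helicase, had 5.36, 8.76 and 10.01 CPM in furan livers, against 3.39, 3.46 and 3.35 CPM in control livers (1.23 ± 0.22, adjusted p = 0.0104). Cdc6, which loads that helicase, rose by 2.15 ± 0.45 and Chaf1a, a histone chaperone, by 0.99 ± 0.20. Cdc6 missed the threshold without furan 43, furan 44, control 02 or control 04 (adjusted p = 0.0513 to 0.0645), and Chaf1a without furan 43 or control 02 (adjusted p = 0.0505 to 0.0615). Furan 41 was the lowest furan liver for 34 of the 46 members. Rises numbered 1 without furan 43, 2 without furan 44, 3 without control 02 or control 04 and 6 without control 06. Falls came to 1 without furan 41 or furan 43. Ccnd1, cyclin D1, had 218, 197 and 212 CPM in furan livers, against 141, 167 and 262 CPM in control livers (0.14 ± 0.20, adjusted p = 0.678), with control 06 above every furan liver. The replication clamp Pcna had 9.81, 10.7 and 10.8 CPM in furan livers, against 9.28, 9.59 and 9.08 CPM in control livers (0.16 ± 0.08, adjusted p = 0.214).

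**Figure D3:**
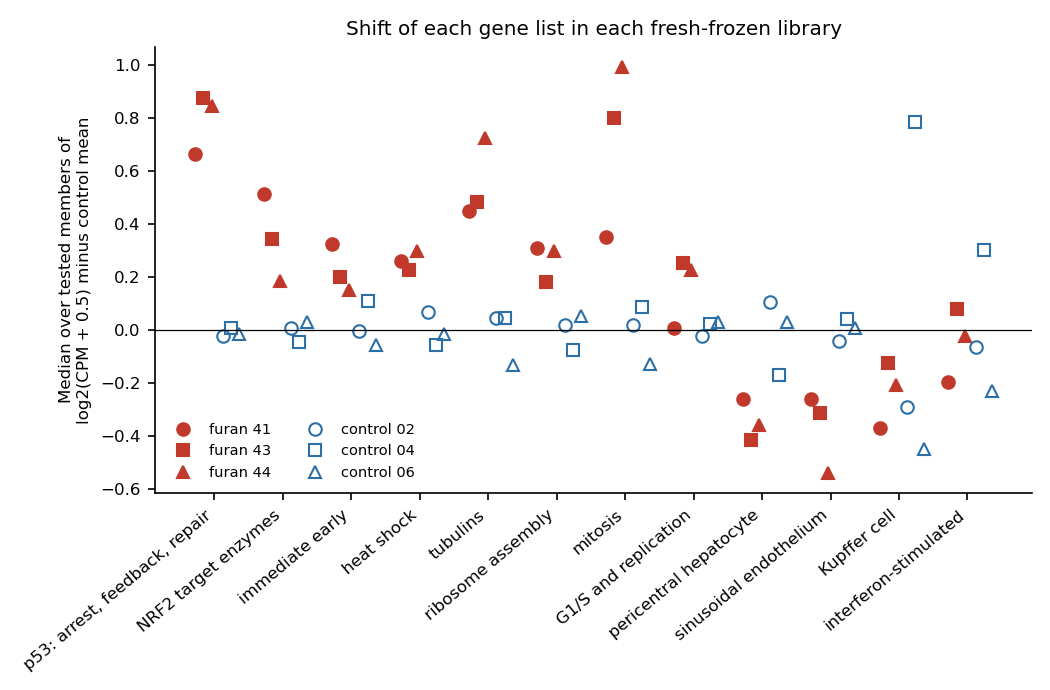
For 12 gene lists, each symbol is 1 fresh-frozen library and gives the median over tested members of log2(CPM + 0.5) minus the control mean, filled red for furan 41, 43 and 44 and open blue for control 02, 04 and 06. Median shifts of mitosis genes were 0.35, 0.80 and 0.99 in furan livers, against 0.02, 0.09 and -0.13 in control livers; those of p53 arrest genes were 0.66, 0.88 and 0.85 in furan livers, against -0.02, 0.01 and -0.02 in control livers, and Kupffer cell markers and interferon genes are set apart by control 04.

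Genes of the fetal or tumour-bearing liver rose in part: 6 of 13 tested rose (0 in the joint model) and 7 did not pass (median log2 fold change 0.67). H19, an imprinted long noncoding RNA of fetal liver, had 0.741, 0.924 and 0.984 CPM in furan livers, against 0.210, 0.231 and 0.295 CPM in control livers (1.82 ± 0.26, adjusted p = 0.0054). Cd63, a tetraspanin of late endosomes, had 2.76, 5.02 and 4.78 CPM in furan livers, against 1.33, 1.15 and 0.886 CPM in control livers (1.89 ± 0.27, adjusted p = 0.00524), and Golm1, a Golgi protein raised in liver disease, had 7.50, 12.2 and 8.86 CPM in furan livers, against 4.07, 4.57 and 3.55 CPM in control livers (1.22 ± 0.19, adjusted p = 0.00707). Rises came to 3 without furan 43. Afp, alpha-fetoprotein, had 6.14, 12.4 and 11.4 CPM in furan livers, against 5.61, 6.15 and 4.92 CPM in control livers (0.83 ± 0.24, adjusted p = 0.0532), with furan 41 level with control livers.

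Of growth factors, liver hormones and their receptors, 6 of 48 tested rose (0 in the joint model), 12 fell (2 in the joint model) and 30 did not pass. Fst, the activin-binding protein follistatin, had 5.81, 8.91 and 5.70 CPM in furan livers, against 1.03, 1.88 and 1.52 CPM in control livers (2.19 ± 0.25, adjusted p = 0.00266). Tsku, a secreted proteoglycan of liver, had 123, 77.2 and 70.2 CPM in furan livers, against 17.3, 12.03 and 33.3 CPM in control livers (2.11 ± 0.37, adjusted p = 0.0104). Fgf21, a fasting and stress hormone, had 12.8, 5.21 and 5.47 CPM in furan livers, against 3.06, 1.84 and 1.46 CPM in control livers (1.91 ± 0.41, adjusted p = 0.0197), with furan 41 more than 2-fold above the other furan livers. The growth hormone receptor Ghr had 450.4, 510.5 and 476 CPM in furan livers, against 694, 661 and 766 CPM in control livers (-0.56 ± 0.09, adjusted p = 0.00792), and the adrenergic receptors Adra1a (-0.91 ± 0.15) and Adra1b (-0.43 ± 0.06) fell, as did Prlr (-0.55 ± 0.10). Fetub, a secreted protease inhibitor, fell by 0.68 on the log2 scale (SE 0.07). Igfbp1, which binds insulin-like growth factors, had 109.9, 68.005 and 25.3 CPM in furan livers, against 26.2, 16.1 and 23.5 CPM in control livers and rose by 1.63 ± 0.45 with overlapping groups. Igf1 had 418, 557 and 711 CPM in furan livers, against 634, 602 and 697 CPM in control livers (-0.20 ± 0.17, adjusted p = 0.479). Fgf21 missed the threshold without control 04 (adjusted p = 0.0587), Prlr without furan 43 (adjusted p = 0.0565), and Igfbp1 without furan 41, furan 43, control 02, control 04 or control 06 or with robust dispersions (adjusted p = 0.075 to 0.141). Falls numbered 5 without furan 43, 6 without control 02 and 7 without control 04. Rises numbered 3 without control 04.

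Genes of hepatocytes around the central vein, where CYP2E1 is highest, fell more often than they rose: 3 of 28 tested rose, 13 fell (4 in the joint model) and 12 did not pass (median log2 fold change -0.34). Cyp2e1 had 5497, 5031 and 5262 CPM in furan livers, against 10803, 9090.1 and 10976 CPM in control livers (-0.97 ± 0.11, adjusted p = 0.00281). All 3 furan livers lay below all 3 control livers. Glul, glutamine synthetase of the innermost hepatocytes, had 803, 795 and 742 CPM in furan livers, against 1258, 950.3 and 1113 CPM in control livers (-0.51 ± 0.11, adjusted p = 0.0217). Cyp1a2 (-0.65 ± 0.15), Prodh (-0.81 ± 0.15) and Slc1a2 (-0.60 ± 0.13) fell, and the amino acid carrier Slc1a4 rose (1.00 ± 0.12). Axin2, a WNT target of this zone, had 24.2, 17.98 and 17.1 CPM in furan livers, against 22.8, 12.5 and 15.4 CPM in control livers (0.23 ± 0.22, adjusted p = 0.515). Glul missed the threshold without furan 41, furan 43, furan 44 or control 02 (adjusted p = 0.0504 to 0.0767), Cyp1a2 without furan 41, furan 43 or furan 44 (adjusted p = 0.0694 to 0.0898), Prodh without furan 43 or furan 44 (adjusted p = 0.0541 to 0.0597), and Slc1a2 without furan 41, furan 43 or furan 44 (adjusted p = 0.0558 to 0.0801). Falls came to 5 without furan 41 or control 02, 1 without furan 43 and 2 without furan 44. Rises came to 1 without furan 43 or furan 44. Of the periportal genes, 2 of 27 tested rose, 5 fell and 20 did not pass (median log2 fold change -0.09). Hsd17b6, a steroid dehydrogenase, had 278, 265 and 267 CPM in furan livers, against 503, 428 and 417 CPM in control livers (-0.74 ± 0.09, adjusted p = 0.00318), and Otc, of the urea cycle, fell by 0.51 on the log2 scale (SE 0.08). Pck1, of gluconeogenesis, had 2143, 2456 and 2159 CPM in furan livers, against 2973, 3112 and 4071 CPM in control livers (-0.59 ± 0.14, adjusted p = 0.0256), and Pigr, the receptor that carries IgA into bile, had 2057, 1647 and 1353 CPM in furan livers, against 2937, 2804 and 2537 CPM in control livers (-0.71 ± 0.15, adjusted p = 0.0201). Pck1 missed the threshold without furan 41, furan 43 or furan 44 (adjusted p = 0.063 to 0.094), and Pigr without furan 43, furan 44, control 02 or control 04 (adjusted p = 0.0524 to 0.0807). Falls numbered 3 without furan 41 or control 02 and 2 without furan 43. Rises numbered 1 without furan 41, furan 43, furan 44 or control 04.

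Of enzymes of amino acid breakdown, 3 of 34 tested rose, 7 fell (1 in the joint model) and 24 did not pass. Bhmt, which remethylates homocysteine, had 832, 568 and 632 CPM in furan livers, against 359, 244 and 355 CPM in control livers (1.08 ± 0.18, adjusted p = 0.00987). Acmsd, of tryptophan breakdown, had 24.2, 40.2 and 37.7 CPM in furan livers, against 8.86, 9.34 and 9.95 CPM in control livers (1.85 ± 0.18, adjusted p = 0.00135), and Ido2, of the same pathway, had 76.6, 78.5 and 73.1 CPM in furan livers, against 125, 120.2 and 135 CPM in control livers (-0.73 ± 0.07, adjusted p = 0.00117). Hpd, of tyrosine breakdown, had 2005, 1632 and 1973 CPM in furan livers, against 2483, 2374 and 3103 CPM in control livers (-0.50 ± 0.13, adjusted p = 0.039), and Uox, which oxidises urate and stands outside the list, had 1603, 1427 and 1301 CPM in furan livers, against 1841, 1869.8 and 2364 CPM in control livers (-0.49 ± 0.13, adjusted p = 0.0385). Hpd missed the threshold without furan 41, furan 43, furan 44, control 02, control 04 or control 06 (adjusted p = 0.0505 to 0.132), and Uox without furan 43, furan 44, control 04 or control 06 (adjusted p = 0.058 to 0.13). Falls came to 2 without furan 41 or control 02, 1 without furan 43 or furan 44 and 4 without control 06. Of 48 liver transcription factors and nuclear receptors 1 rose and 3 fell, among them Nr1i3, the xenobiotic receptor CAR, which fell (-0.70 ± 0.15). Nr1i3 missed the threshold without furan 43 or furan 44 (adjusted p = 0.0719 to 0.0773). Falls numbered 0 without furan 43 and 1 without furan 44. Rises came to 0 without furan 41, furan 43, control 04 or control 06 and 2 without furan 44. Hnf4a, which sets hepatocyte identity, had 1184, 983 and 899.8 CPM in furan livers, against 899.6, 825 and 806 CPM in control livers (0.28 ± 0.11, adjusted p = 0.136).

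Of bile acid genes, 2 of 23 tested rose, 4 fell (2 in the joint model) and 17 did not pass. Abcc2, the canalicular pump that exports conjugates, had 1424, 1231 and 1142 CPM in furan livers, against 839, 837 and 989 CPM in control livers (0.51 ± 0.11, adjusted p = 0.0219), and the uptake carrier Slco1b2 (-0.55 ± 0.11) fell. Abcc2 missed the threshold without furan 43, control 02 or control 04 (adjusted p = 0.0618 to 0.0667), and Slco1b2 without furan 44 (adjusted p = 0.0587). Falls came to 1 without furan 44 and 2 without control 02. Rises numbered 1 without furan 41, control 02 or control 06 and 0 without furan 43 or control 04. Cyp7a1, the rate-limiting enzyme of bile acid synthesis, had 71.3, 134 and 126 CPM in furan livers, against 114, 148 and 422 CPM in control livers (-1.05 ± 0.47, adjusted p = 0.166), with control 06 apart from the other 5 livers. Of cholesterol genes, 5 of 33 tested rose (0 in the joint model), 2 fell and 26 did not pass, among them the feedback regulator Insig1 (0.58 ± 0.09) and hepatic lipase Lipc (-0.69 ± 0.09). Rises came to 2 without furan 41 or control 04, 1 without furan 43 and 3 without furan 44. Falls numbered 1 without furan 43, furan 44 or control 02. Of fat synthesis and droplet genes, 5 of 31 tested rose (0 in the joint model), 4 fell (1 in the joint model) and 22 did not pass, with Gpam, of glycerolipid synthesis, at 0.57 ± 0.08. Rises numbered 2 without furan 41, furan 43 or control 04 and 3 without furan 44 or control 02. Falls came to 0 without furan 43 and 1 without furan 44. Of fatty acid oxidation genes, 1 of 37 tested rose, 4 fell (1 in the joint model) and 32 did not pass. Acsl1, which activates fatty acids, had 1537, 1253 and 1207 CPM in furan livers, against 2127, 1902 and 1731 CPM in control livers (-0.53 ± 0.12, adjusted p = 0.0261). Acsl1 missed the threshold without furan 43, furan 44, control 02 or control 04 (adjusted p = 0.0613 to 0.103). Falls numbered 7 without furan 41, 0 without furan 43 and 1 without furan 44, control 02 or control 04. Rises came to 0 without furan 41, control 04 or control 06, and 0 by DESeq2. Of glycolysis and gluconeogenesis genes outside Pck1, 2 of 30 tested fell, among them the glycogen phosphatase subunit Ppp1r3g, with 4.40, 2.82 and 1.77 CPM in furan livers, against 3.43, 14.7 and 20.2 CPM in control livers (-2.07 ± 0.58, adjusted p = 0.0472) and overlapping groups. Ppp1r3g missed the threshold without furan 41, furan 43, furan 44, control 04 or control 06, with the filter at 5 CPM or with robust dispersions (adjusted p = 0.0513 to 0.149). Falls came to 0 without furan 43 or furan 44 and 1 without control 04 or control 06.

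**Figure D4:**
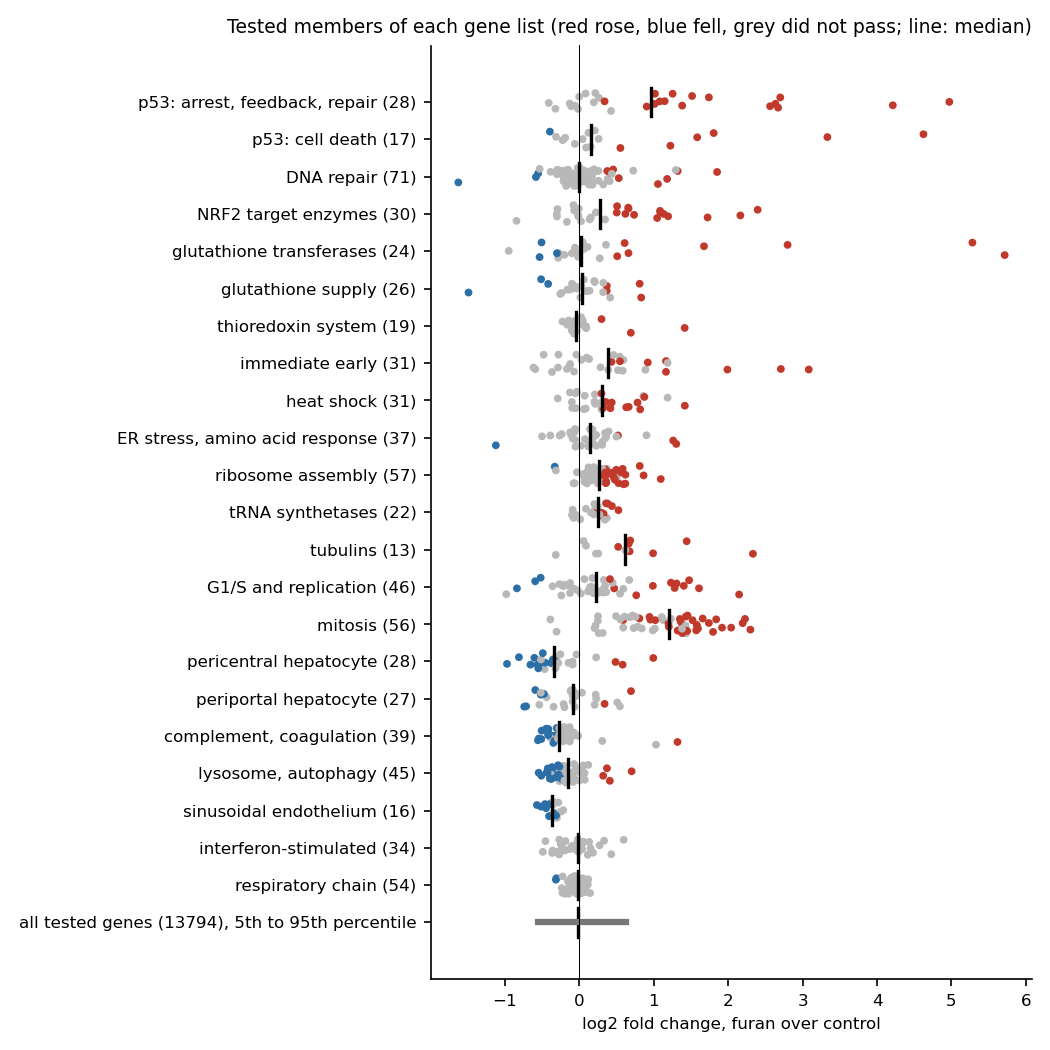
Points are tested members of 22 gene lists at their log2 fold change, furan over control, red where they rose and blue where they fell; black lines are list medians and the grey bar spans the 5th to 95th percentile of all tested genes (-0.55 to 0.63). Medians lie furthest right for mitosis (1.20) and p53 arrest genes (0.96), and to the left for endothelial markers (-0.36) and pericentral genes (-0.34).

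Secreted proteins of complement and coagulation fell more often than they rose: 1 of 39 tested rose, 14 fell (3 in the joint model) and 24 did not pass (median log2 fold change -0.26). Pros1, the anticoagulant protein S, had 54.7, 58.7 and 54.5 CPM in furan livers, against 86.8, 78.8 and 80.7 CPM in control livers (-0.55 ± 0.07, adjusted p = 0.00324). Serping1, the C1 inhibitor, had 628, 623 and 623 CPM in furan livers, against 945, 850.4 and 859 CPM in control livers (-0.50 ± 0.08, adjusted p = 0.00716). Klkb1 (-0.51 ± 0.08), Proc (-0.44 ± 0.07), F7 (-0.54 ± 0.09) and C2 (-0.34 ± 0.06) also fell. Falls numbered 9 without furan 43 and 7 without furan 44. C3 had 16293, 14866 and 16389 CPM in furan livers, against 19948, 19056 and 18193 CPM in control livers (-0.27 ± 0.11, adjusted p = 0.14). Of acute phase genes, 2 of 27 tested rose, 4 fell (1 in the joint model) and 21 did not pass, with Orm1 (-0.55 ± 0.10) and Orm3 (-1.03 ± 0.20) falling and Lcn2 (0.88 ± 0.18) rising. Orm1 missed the threshold without furan 43 (adjusted p = 0.0557), Orm3 without furan 43 (adjusted p = 0.057), and Lcn2 without furan 41 or furan 43 (adjusted p = 0.0531 to 0.0618). Falls came to 2 without furan 41, furan 44, control 02 or control 04 and 0 without furan 43. Rises numbered 0 without furan 41 or furan 43 and 1 without control 02. Of apolipoprotein genes, 1 of 15 tested rose, 1 fell and 13 did not pass by edgeR, and 2 rose and 4 fell by DESeq2 (median log2 fold change -0.19). Apoc2, an activator of lipoprotein lipase, rose by 0.98 ± 0.08. Falls numbered 0 without furan 41, furan 43, furan 44, control 04 or control 06. Rises came to 2 without control 02.

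Lysosome and autophagy genes fell more often than they rose: 4 of 45 tested rose (0 in the joint model), 14 fell (1 in the joint model) and 27 did not pass (median log2 fold change -0.15). Naglu, a lysosomal glucosaminidase, had 33.7, 35.9 and 34.2 CPM in furan livers, against 47.3, 45.1 and 47.5 CPM in control livers (-0.43 ± 0.06, adjusted p = 0.00607), and Lamp2, of the lysosomal membrane, had 582, 598 and 572 CPM in furan livers, against 858, 739 and 749.6 CPM in control livers (-0.42 ± 0.09, adjusted p = 0.0168). Tfe3, a factor that drives lysosome genes, had 52.8, 48.4 and 44.9 CPM in furan livers, against 29.2, 31.2 and 29.2 CPM in control livers (0.71 ± 0.08, adjusted p = 0.0022), and the glucuronidase Gusb rose by 0.37 ± 0.07. Lamp2 missed the threshold without furan 43 or furan 44 (adjusted p = 0.0548 to 0.0605). Falls came to 9 without furan 41, 1 without furan 43, 2 without furan 44 and 6 without control 02 or control 04. Rises numbered 2 without furan 41, furan 43 or control 04. Of subunits of the respiratory chain, 2 of 54 tested fell, with a list median of -0.01. Falls numbered 0 without furan 43 or control 02 and 1 without furan 44 or control 06.

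Sex-biased liver genes of these female livers are set beside 8.21% of all tested genes rising and 7.47% falling. Of genes higher in female liver, 5 of 29 tested rose (1 in the joint model), 4 fell (0 in the joint model) and 20 did not pass. Cyp2a4, a steroid hydroxylase, had 1636, 1719 and 1804 CPM in furan livers, against 643, 722 and 959 CPM in control livers (1.15 ± 0.15, adjusted p = 0.0036), although it shares 58.9% of its 31-base words with other genes and its level is uncertain. Cyp3a41a (1.85 ± 0.18), Cyp3a44 (0.60 ± 0.11) and the carrier Slc22a27 (0.87 ± 0.15) rose, and Slc22a26 (-0.90 ± 0.11) and the nuclear factor Tox (-1.09 ± 0.18) fell. Cyp3a41b, of the same family as Cyp3a41a, was at 0 in all 6 libraries, and the division of reads between such genes was not tested. Cux2, a homeobox factor of female liver, had 18.7, 12.8 and 20.5 CPM in furan livers, against 25.2, 69.3 and 93.7 CPM in control livers (-1.86 ± 0.42, adjusted p = 0.0231). Cux2 missed the threshold without furan 41, furan 43, furan 44 or control 04 or with robust dispersions (adjusted p = 0.0571 to 0.0962). Falls came to 2 without furan 43. Of genes higher in male liver, 1 of 22 tested rose, 2 fell and 19 did not pass. The urinary protein gene Mup20, from a cluster of near-identical copies, had 32.5, 84.3 and 45.3 CPM in furan livers, against 12.03, 7.70 and 5.32 CPM in control livers (2.70 ± 0.40, adjusted p = 0.00616), Cyp2c54 fell (-0.73 ± 0.13), and Elovl3, a fatty acid elongase, had 0.724, 0.734 and 0.897 CPM in furan livers, against 8.01, 3.73 and 1.69 CPM in control livers (-2.51 ± 0.53, adjusted p = 0.019). Elovl3 missed the threshold without furan 41, furan 43 or furan 44 (adjusted p = 0.0601 to 0.0764). Falls numbered 1 without furan 41, furan 43 or furan 44. Control values of Elovl3 differed more than 4-fold between control 02 and control 06.

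Some of the largest changes in CPM, and several genes that did not pass, varied within a group. Lars2, a mitochondrial leucyl-tRNA synthetase, had 1418, 1695 and 1822 CPM in furan livers, against 393, 740.3 and 891 CPM in control livers (1.29 ± 0.27, adjusted p = 0.0179), and the locus named Mir6236 had 916, 1013 and 974 CPM in furan livers, against 181, 483 and 530.2 CPM in control livers (1.28 ± 0.34, adjusted p = 0.0384). Control 02 was the lowest library for both. Lars2 missed the threshold without furan 43 or furan 44 (adjusted p = 0.0605 to 0.0639), and Mir6236 without furan 41, furan 43, furan 44 or control 04 or with robust dispersions (adjusted p = 0.0604 to 0.112). The ribosomal RNA precursor Rn45s had 1295, 1496 and 4982 CPM in furan livers, against 1773, 1320.0 and 1898 CPM in control livers (0.64 ± 0.47, adjusted p = 0.393), with furan 44 apart from the other 5 libraries, and its part in the values of Lars2 and Mir6236 was not tested. Of the clock genes, 3 of 21 tested rose, 1 fell and 17 did not pass. Arntl, the clock activator BMAL1, had 8.48, 8.93 and 9.06 CPM in furan livers, against 3.22, 1.84 and 1.08 CPM in control livers (2.12 ± 0.31, adjusted p = 0.00611). Control 06 was the highest control liver for 12 of the 21 tested clock genes: Usp2 had 36.9, 35.6 and 36.1 CPM in furan livers, against 26.2, 31.5 and 107 CPM in control livers (-0.60 ± 0.47, adjusted p = 0.421), and Ciart had 10.05, 9.001 and 8.19 CPM in furan livers, against 3.97, 5.26 and 25.1 CPM in control livers (-0.33 ± 0.60, adjusted p = 0.74). Lpin1, a phosphatidate phosphatase, had 175, 139 and 110.4 CPM in furan livers, against 124, 154 and 482 CPM in control livers (-0.84 ± 0.47, adjusted p = 0.258). In these 3 genes control 06 stood above all furan livers while the other control livers did not. Rises among clock genes numbered 1 without furan 41, furan 43 or control 02 and 5 without control 06. Falls among them numbered 0 without furan 41, furan 43, furan 44, control 04 or control 06.

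**Figure D5:**
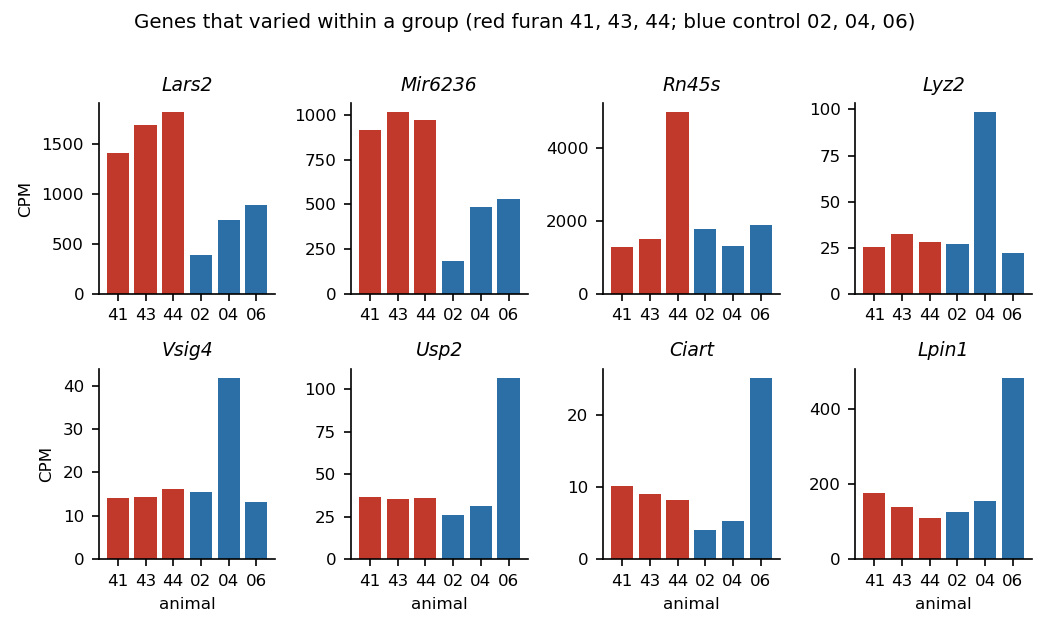
Bars give the level in CPM of 8 genes in each fresh-frozen library, red for furan 41, 43 and 44 and blue for control 02, 04 and 06, with axes from 0. Lars2 and Mir6236 are lowest in control 02, Rn45s is highest in furan 44, Lyz2 and Vsig4 are highest in control 04, and Usp2, Ciart and Lpin1 are highest in control 06.

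Among markers of sinusoidal endothelial cells, 9 of 16 tested fell (1 in the joint model) and 7 did not pass (median log2 fold change -0.36). Stab2, a scavenger receptor, had 96.9, 77.6 and 74.9 CPM in furan livers, against 126, 118 and 125 CPM in control livers (-0.57 ± 0.10, adjusted p = 0.0115), and Dnase1l3, a secreted nuclease, had 58.8, 59.9 and 50.3 CPM in furan livers, against 78.4, 74.8 and 72.03 CPM in control livers (-0.41 ± 0.08, adjusted p = 0.0157). Oit3 (-0.51 ± 0.10), Ptprb (-0.46 ± 0.09) and the lectin Clec4g (-0.38 ± 0.08) fell too. Furan 44 was the lowest furan liver for 14 of the 16 markers, and summed levels were 699, 638 and 581 CPM in furan livers, against 817, 849 and 826 CPM in control livers. Stab2 missed the threshold without furan 43 (adjusted p = 0.0538), Oit3 without furan 43 (adjusted p = 0.0601), Ptprb without furan 43 (adjusted p = 0.0558), and Clec4g without furan 44 or control 02 (adjusted p = 0.051 to 0.0517). Falls came to 2 without furan 43 and 4 without furan 44 or control 02. The part of endothelial RNA in other falls was not tested. Kupffer cell markers were set apart by control 04, which was the highest control liver for all 13 tested: Vsig4 had 13.997, 14.4 and 16.1 CPM in furan livers, against 15.6, 41.8 and 13.2 CPM in control livers (-0.67 ± 0.39, adjusted p = 0.28). By edgeR, 0 of the 13 passed and 1 had an unadjusted p under 0.05, and by DESeq2 0 passed. Without control 04, 2 of them rose. Control 04 was also the highest control liver for 30 of 34 interferon genes, of which 0 passed by edgeR (1 higher and 2 lower at an unadjusted p under 0.05) and by DESeq2 1 rose and 1 fell. Without control 06, 3 interferon genes fell.

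Mmp12, the macrophage elastase, had 3.22, 8.74 and 4.57 CPM in furan livers, against 0.140, 0.423 and 0.335 CPM in control livers (4.15 ± 0.48, adjusted p = 0.0025) and was the 1 marker of recruited macrophages that passed, of 10 tested; summed levels of those markers were 92.7 to 113 CPM in furan livers and 84.3 to 171 CPM in control livers, the highest in control 04. Lyz2, of the same list, had 25.2, 32.4 and 28.1 CPM in furan livers, against 27.2, 98.4 and 21.9 CPM in control livers (-0.79 ± 0.50, adjusted p = 0.327). Adamts1, a secreted protease, had 46.97, 36.1 and 34.8 CPM in furan livers, against 11.3, 13.03 and 14.8 CPM in control livers (1.59 ± 0.14, adjusted p = 0.000854) and the collagenase Mmp13 rose by 2.40 ± 0.63, while Col1a1, the main fibrillar collagen, had 17.6, 16.1 and 23.9 CPM in furan livers, against 11.8, 15.8 and 17.1 CPM in control livers (0.36 ± 0.18, adjusted p = 0.2). Mmp13 missed the threshold without furan 43, furan 44, control 02, control 04 or control 06 (adjusted p = 0.0556 to 0.126). Matrix genes and matrix proteases showed 4 rises among 38 tested (1 in the joint model), 1 fall and 33 that did not pass. Their log2 fold changes ran from -1.42 to 4.15, with a median of 0.05. Over all tested genes 8.21% rose and 7.47% fell. Rises in this list came to 2 without furan 43, furan 44 or control 06. Of the chemokine and NF-kappaB genes, 3 of 30 tested rose, 3 fell and 24 did not pass. Cxcl10, a T cell chemokine, had 4.40, 5.45 and 4.40 CPM in furan livers, against 1.68, 1.94 and 1.56 CPM in control livers (1.46 ± 0.15, adjusted p = 0.00189), the adhesion molecule Icam1 rose by 0.63 ± 0.11 and the cytokine Il18 fell (-0.60 ± 0.11). Falls numbered 1 without furan 41, furan 43, furan 44, control 02, control 04 or control 06. Ccl2, which draws monocytes, had 0.362, 0.663 and 0.550 CPM in furan livers, against 0.117, 0.307 and 0.236 CPM in control livers (1.19 ± 0.39, adjusted p = 0.078). Summed markers of stellate cells were 529 to 539 CPM in furan livers and 519.6 to 534 CPM in control livers, and those of neutrophils 2.88 to 3.58 CPM in furan livers and 2.56 to 5.05 CPM in control livers, T and NK cells 3.74 to 4.78 CPM in furan livers and 3.72 to 8.03 CPM in control livers and B cells 4.29 to 5.07 CPM in furan livers and 3.69 to 6.38 CPM in control livers. By edgeR 0 of the tested markers of these 4 lists passed, with 2 lower at an unadjusted p under 0.05, and 0 by DESeq2. Cholangiocyte markers summed to 76.9 to 80.4 CPM in furan livers and 63.3 to 72.7 CPM in control livers, and Prom1 was the 1 of 10 that rose (0.84 ± 0.23). Prom1 missed the threshold without furan 43, furan 44, control 02, control 04 or control 06 or with robust dispersions (adjusted p = 0.0619 to 0.113).

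The falls with the smallest p-values included several genes known by clone names only. B930025P03Rik, a long noncoding RNA, had 2.31, 2.01 and 0.984 CPM in furan livers, against 12.2, 12.6 and 14.4 CPM in control livers (-2.84 ± 0.24, adjusted p = 0.000767), the lowest in furan 44. The noncoding 4833411C07Rik (-1.69 ± 0.13) and 4930581F22Rik (-1.25 ± 0.11) fell, as did 1500017E21Rik (-1.86 ± 0.14), of which 64.1% of 31-base words are shared with other genes. The libraries did not keep strand, so reads of overlapping or antisense genes cannot be told apart. Dixdc1, of WNT signalling, had 27.6, 28.3 and 27.4 CPM in furan livers, against 52.6, 59.2 and 52.3 CPM in control livers (-0.98 ± 0.07, adjusted p = 0.000451), and Fzd8, a WNT receptor, had 23.2, 23.97 and 22.8 CPM in furan livers, against 43.1, 45.4 and 41.1 CPM in control livers (-0.89 ± 0.07, adjusted p = 0.000465). Hdac11, a histone deacetylase, had 52.2, 52.5 and 53.7 CPM in furan livers, against 88.2, 92.7 and 96.98 CPM in control livers (-0.81 ± 0.06, adjusted p = 0.00049), and the pseudokinase Nrbp2 fell by 0.73 on the log2 scale (SE 0.06). Furan livers were close together in each of these 4 genes. BC024139 (-1.23 ± 0.09) and AI317395 (-0.94 ± 0.08), a carrier now named Mfsd4b1, fell too, and Lect1, a cartilage glycoprotein gene, had 0.621, 0.616 and 0.492 CPM in furan livers, against 2.52, 2.09 and 2.52 CPM in control livers (-2.03 ± 0.18, adjusted p = 0.000998). Ccdc120, a centrosome protein, was among the 10 rises with the smallest p, with 7.10, 7.63 and 5.93 CPM in furan livers, against 1.33, 1.08 and 0.985 CPM in control livers (2.61 ± 0.16, adjusted p = 0.000254).

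Further pieces of these and other livers of the study were kept in formalin for 18 h or 3 wk, embedded in paraffin (FFPE) and extracted with another kit, with 4 libraries a group at each time. Fits within FFPE libraries called 503 rises (3.92% of tested genes) and 574 falls (4.47%) at 18 h, and 36 rises (0.298%) and 63 falls (0.522%) at 3 wk. FFPE libraries were shallower, with 16269854 to 22494012 counts at 18 h and 3666173 to 11780691 at 3 wk. Fresh-frozen libraries held 33101755 to 58048387. Rn45s took 4.85% to 37.3% of counts in FFPE libraries and 0.129% to 0.52% in fresh-frozen libraries. The part of depth and of Rn45s in the numbers called was not tested. A test of the difference between the fresh-frozen and the FFPE response called 0 of 13739 genes at 18 h and 0 of 13156 at 3 wk by edgeR, with 455 and 590 at an unadjusted p under 0.05. DESeq2 called 1 gene at 18 h and 38 at 3 wk. With the animal as a replicate block edgeR called 2 genes at 18 h, Dmbt1 and Ppp1r10, and 0 at 3 wk, with 1558 and 741 at an unadjusted p under 0.05. Dmbt1 had too few counts to test in fresh-frozen liver, with 0.0517, 0.758 and 0.0579 CPM in furan livers and 0 in all control livers. Ppp1r10 was not called within fresh-frozen liver (adjusted p = 0.123) or within FFPE 18 h liver (adjusted p = 0.559). Without control 02 of the 3 wk FFPE libraries, 5 genes were called at 3 wk. Cdkn1a rose by 4.97 ± 0.10 in fresh-frozen liver, and its FFPE log2 fold changes were 4.31 ± 0.14 at 18 h and 4.12 ± 0.30 at 3 wk. Of the mitosis genes, 29 of 56 tested rose in fresh-frozen liver, 2 of 44 in FFPE 18 h liver and 1 of 29 in FFPE 3 wk liver. The difference of the fold changes had an unadjusted p under 0.05 for 1 of 54 of them at 18 h and 4 of 49 at 3 wk. Of the heat shock genes, 11 of 31 rose in fresh-frozen, 14 of 30 in FFPE 18 h and 0 of 30 in FFPE 3 wk liver, and that difference had an unadjusted p under 0.05 for 1 of 31 and 2 of 31 of them. Of the pericentral genes, 13 of 28 fell in fresh-frozen, 8 of 28 in FFPE 18 h and 4 of 28 in FFPE 3 wk liver, with a difference at an unadjusted p under 0.05 for 1 of 28 at 18 h and 6 of 28 at 3 wk. Cyp2e1 had log2 fold changes of -0.97 ± 0.11 in fresh-frozen liver, -0.62 ± 0.08 in the 18 h FFPE pieces and -0.64 ± 0.09 in FFPE 3 wk liver.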

How the data were processed

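RNA of the labelled livers was sequenced from poly(A)-selected, unstranded libraries, per the labels' protocols, with RNA integrity numbers above 8.9 for frozen tissue. Per the submitters' processing notes, the tools were CASAVA 1.8.2, STAR 2.3.0 and featureCounts 1.4.4 with mouse build mm9. The authors deposited raw integer counts per gene for 24015 gene symbols. Of the 24 columns, 22 could be tied to 1 labelled sample each through their tissue state and animal; the other 2, fresh-frozen columns with unlabelled animal numbers, were not used here. The labelled fresh-frozen animals 03 (control) and 42 (furan) had no column of that number and so were not analysed here. Whether the 2 unused columns hold these animals was not tested.

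Counts were tested with edgeR 4.0.16 in R 4.3.3 (TMM scaling, filterByExpr, quasi-likelihood F test, Benjamini-Hochberg adjusted p under 0.05) on the 6 fresh-frozen libraries alone. CPM use TMM-scaled totals, and the SE follows from dividing the size of the log2 fold change by the root of F, and is approximate where a group holds few counts. Differences between responses came from a treatment by preservation interaction term. Same-numbered pieces come from 1 animal per the labels, and their deviations from group means correlated at r of 0.211 to 0.339 (FFPE 18 h) and 0.0332 to 0.116 (3 wk). The fits were tested on simulated data. Gene lists and the rule for named genes were chosen with earlier results of these data known: the 10 rises and 10 falls of smallest p at 5 CPM or more, the 6 largest CPM differences and 5 largest log2 fold changes (at 1 CPM or more) each way, and called or best known list members. Some genes that the rule takes in are not reported here. Sequence shared between genes came from the GENCODE M21 annotation and promoters from RefSeq (GRCm38.p6); no mm9 coordinates are printed. Counts carry no molecular identifiers.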

Additional observations from a re-analysis of the deposited data

How the results depend on the processing

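The fresh-frozen comparison called 2162 genes, and 138 in 1 model of all 6 groups, of which 56 rose. DESeq2 1.42.0 called 2336, RLE scaling 2185, no filter 2107, a 5 CPM filter 2041, robust dispersions 2213 and thinning to the shallowest library 2034. Leaving out 1 library gave 864 to 1620. Of 416 called genes that were followed, 62 passed under every alternative that tested them. The direction reversed in 0 of the 416 under any of these alternatives by edgeR or DESeq2. Groups overlapped in only 3 of the 2162 called genes, so a reversal could hardly occur and its absence is no further support. 339 did not pass in the 1 model, 215 without furan 43, 173 without furan 44, 6 by DESeq2 and 0 under RLE scaling; the cause was not tested, though leaving out a library leaves fewer samples. For the difference between fresh-frozen and FFPE 18 h responses, 0 genes were called, 2 with the animal as a replicate block, 1 by DESeq2 and 0 to 0 with 1 library left out. For FFPE 3 wk, 0 were called, 0 with the replicate block, 38 by DESeq2 and 0 to 5 with 1 library left out. The block was fitted for these differences only, since each animal gave 1 fresh-frozen library. Genes under about 1 CPM rest on few counts, and 3 animals a group limit what can be detected.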
